A study of Arabidopsis thaliana with 2 samples.

Results

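NAC domain genes encode one of the large families of plant transcription factors. Their proteins share an N-terminal DNA-binding domain named after NAM, ATAF and CUC, and differ in a variable C-terminal part that activates or represses transcription. Members are best known for leaf senescence, responses to drought and abscisic acid, the making of secondary walls in vessels and fibres, and the boundaries between organs. Several are held at membranes and released under stress.

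The genes described here were all protein-coding genes of Arabidopsis thaliana on chromosomes 1 to 5 whose symbol or synonym in the RefSeq gene table of TAIR10.1 is NAC or ANAC followed only by a number, in either case of letters. There were 100 such genes among 27444, of which 81 bore the name as their symbol and 19 only as a synonym (ATAF1, NAP, RD26, CUC1 and the like). The table spells out "NAC domain" in a name of 99 of the 100, and NAC014 is the exception. Members that share a symbol, and ORE1, are called by their ANAC number.

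Binding of PRR5 (PSEUDO-RESPONSE REGULATOR 5), a repressor of the circadian clock, was mapped by chromatin immunoprecipitation and sequencing. There were 2 groups of 1 library each, anti-GFP ChIP and input, and both used the same genotype, prr5 with a FLAG-PRR5-GFP transgene that the PRR5 promoter drives. Whole plants were harvested at 18 days of age from MS medium with 2% sucrose and 0.3% gellan gum, at 1 time of day, 10 h after light on in a day of 12 h light. With 1 library per group no difference has a replicate check, no test was made, and intervals cover counting error only. The deposited list held 8983 regions. For each it gave a false discovery rate (FDR, in percent) over the input and a number of reads, from 17 to 26570, whose library is not stated. The sequence of the regions was not analysed here.

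A gene was counted as near a region when the region's centre fell inside the gene or no farther than 1 kb from one of its ends. Of the 100 NAC genes 48 were near a region (48.0%, with a 95% Clopper-Pearson interval of 37.9 to 58.2), where the share over all 27444 genes was 28.0%. At an FDR of 5% or less, which left 5788 regions, 35 NAC genes were near one (35.0%, 25.7 to 45.2), against 20.1%. Regions were ranked by FDR, with ties ranked by reads. Near the 4491 ranked highest there were 30 NAC genes (30.0%, 21.2 to 40.0), against 16.2%, and near the 2245 ranked highest 14 (14.0%, 7.87 to 22.4), against 8.60%. The last interval, for the regions with the strongest support, is wide with 100 members and holds the share of all genes. Differences from the share of all genes were not tested at any of these limits. The members were chosen with earlier results of these data known.

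The share over all genes hardly changed when genes of like length were taken. NAC genes had a median length of 1942 bp and all protein-coding genes 2078 bp. Among the 8657 protein-coding genes with lengths between the quartiles of the NAC genes (1690 and 2704 bp), 28.5% were near any region and 9.61% near the 2245 ranked highest. Families named by the same kind of rule gave shares whose intervals overlapped that of NAC. Of 72 WRKY genes 54.2% (42.0 to 66.0) were near a region, of 125 MYB genes 40.8% (32.1 to 49.9) and of 27 ERF genes 44.4% (25.5 to 64.7). None of these differences was tested.

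**Figure D1:**
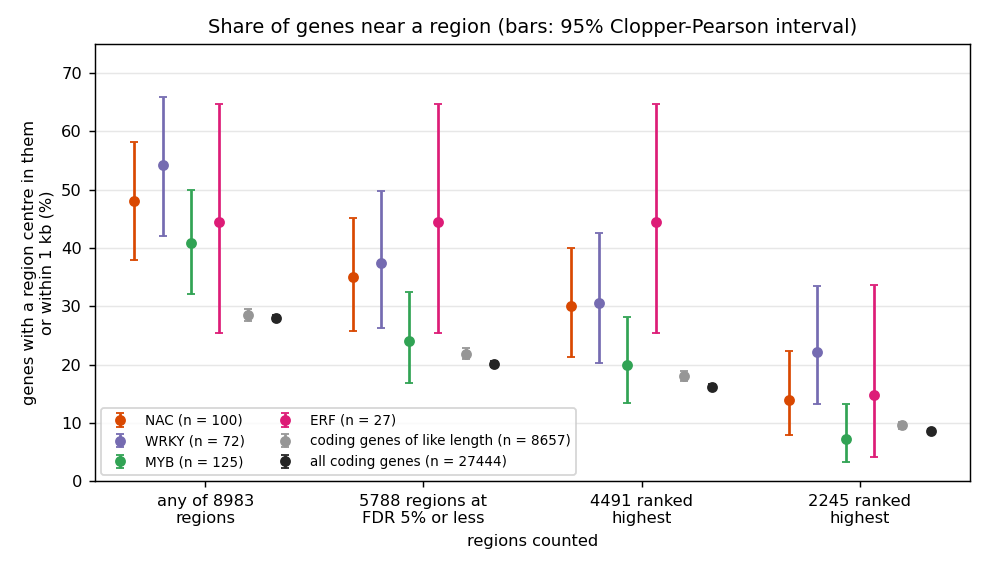
Share of genes near a region (y axis, percent) for NAC, WRKY, MYB and ERF genes, coding genes of like length and all coding genes, by the regions counted (x axis). Points are shares and bars 95% Clopper-Pearson intervals; NAC genes stood at 48.0% against 28.0% of all coding genes for any region, and at 14.0% against 8.60% for the 2245 ranked highest, where the NAC interval reaches down to 7.87%.

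The best region of a NAC gene, the one with the lowest FDR, held 17 to 4859 reads with a median of 296, and the best regions of all protein-coding genes near one had a median of 338. The median rank was 3600.5 for NAC genes and 3795 for all genes. Coding genes of like length near a region had more reads and a better rank than NAC genes, with medians of 452.5 reads and rank 3325.5. MYB genes had medians of 176 reads and rank 4883, WRKY genes 256 and 3716, and ERF genes 443 and 2638, so NAC genes lay within the range of the other families. Of the 48 best regions 14 (29.2%) were among the 2245 ranked highest, against 30.7% of those of all genes near a region. At the other end, 13 of the 48 had an FDR above 5%, and 3 of these above 50%. That left 35 of the 48 at 5% or less, and 5513 of the 7689 protein-coding genes near a region, so this count is near the background. For an FDR above 50% the share over all genes was not computed. The 54 distinct regions near NAC genes held 32238 reads, 0.631% of the 5112270 reads in all regions, and they made up 0.601% of the regions.

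The regions with the most reads lay at 4 genes of the ATAF1 and NAC019 branches, which act in responses to drought, abscisic acid and other stresses. ATAF1 (AT1G01720), an early-responding stress factor, had 4859 reads (95% Poisson interval 4723 to 4998) on chromosome 1 from 268571 to 268740, inside the gene and also within 1 kb of AT1G01715. NAC102 (AT5G63790), known for the response of seeds to low oxygen, had 4310 reads (4182 to 4441) on chromosome 5 from 25527566 to 25527661, inside the gene and with no other protein-coding gene within 1 kb. NAC032 (AT1G77450), a stress-induced relative of ATAF1, had 3983 reads (3860 to 4109) on chromosome 1 from 29098925 to 29099133, 810 bp outside the gene and also within 1 kb of PBC2. These were the NAC genes among the 300 regions with the most reads, which began at 2897 reads. Reads and FDR did not order the genes alike. By FDR the ranks were 260 for ATAF1, 264 for NAC102 and 701 for NAC032. The region of NAC048 and NAC049, with 1102 reads, ranked 310. The centres lay 662.5 bp from the nearer gene end in ATAF1 and 667.5 bp in NAC102, where the nearer end may be the start in 1 gene and the far end in the other. ATAF2 (AT5G08790), the fourth gene of this branch, had no region within 3 kb.

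NAC019 (AT1G52890) had the lowest FDR of the family, 1.59e-102%, at rank 167. Its region, on chromosome 1 from 19699277 to 19699445, held 2217 reads (2126 to 2311) and lay 879 bp outside the gene, with no other protein-coding gene within 1 kb. ANAC055 (AT3G15500), which acts with NAC019 in abscisic acid and jasmonate responses, had 644 reads (595 to 696) on chromosome 3 from 5234474 to 5234609, inside the gene at 84.5 bp from its end, and a weaker region of 163 reads beside it. RD26 (AT4G27410), the third gene of this branch, had no region within 3 kb. The ranks of NAC019 and ANAC055 were thus far apart, 167 against 2608, and their regions lay at different places relative to the gene.

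**Figure D2:**
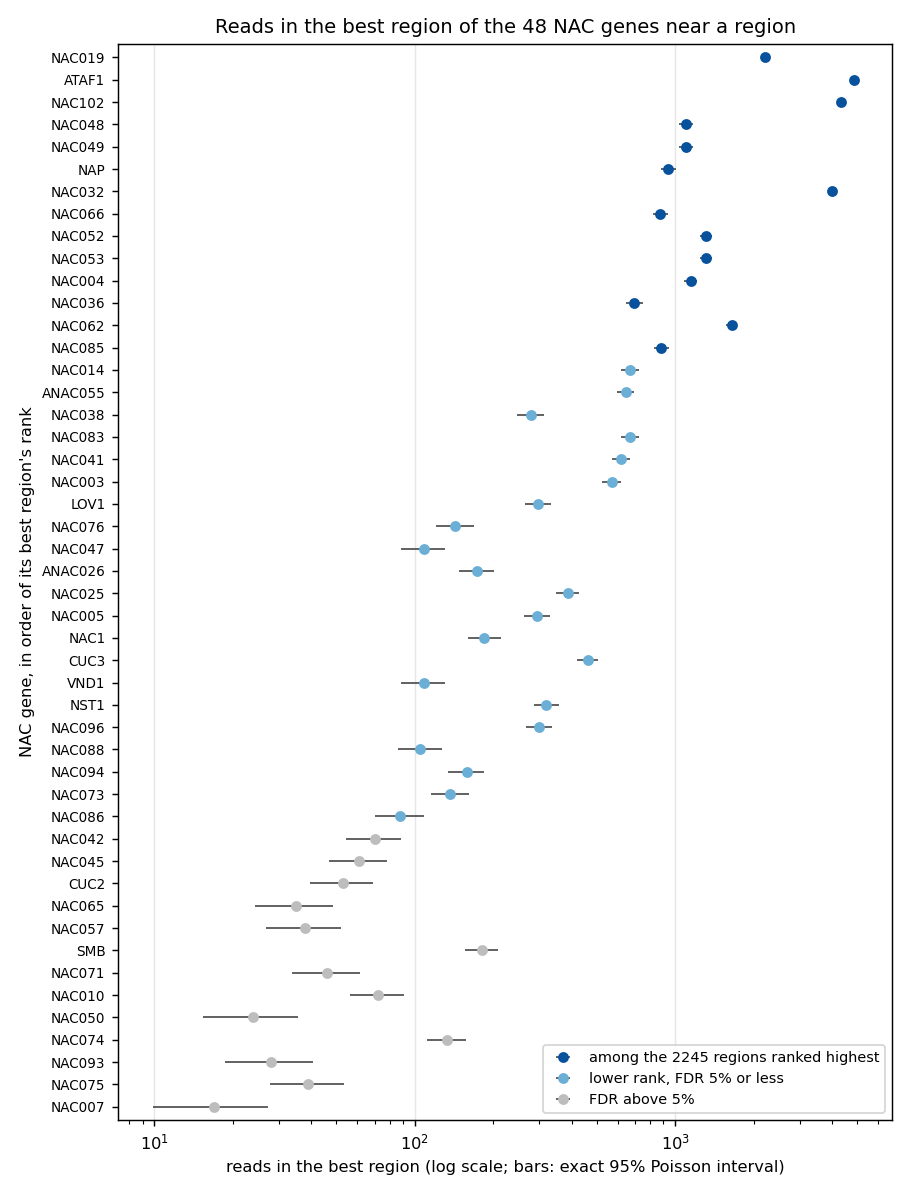
Reads in the best region (x axis, log scale, exact 95% Poisson intervals) of the 48 NAC genes near a region (y axis, ordered by rank), coloured by support. ATAF1, NAC102 and NAC032 lie at 3983 to 4859 reads, apart from NAC019 at 2217 and the others at 1648 or fewer, and the 13 genes with an FDR above 5% lie at 17 to 181 reads.

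Another 10 NAC genes were near the 2245 regions ranked highest, and they belong to several branches. NAC048 (AT3G04420) and NAC049 (AT3G04430) are neighbours and share 1 region of 1102 reads (1038 to 1169) at rank 310, on chromosome 3 from 1175234 to 1175371. It lay between them, 794.5 bp from NAC048 and 203.5 bp from NAC049, and ChIP alone cannot assign it to either gene. NAP (AT1G69490), an activator of leaf senescence, had 940 reads (881 to 1002) on chromosome 1 from 26123539 to 26123698, 104.5 bp outside the gene and also within 1 kb of CYP704B1. A further region of 581 reads at rank 919 lay 1181.5 bp from NAP. NAC066 (AT3G61910), also called NST2, which promotes wall thickening in anthers, had 877 reads (820 to 937) on chromosome 3 from 22929332 to 22929483, inside the gene, and a region of 222 reads beside it.

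NAC053 (AT3G10500), a membrane-bound factor of drought and proteasome stress, and its neighbour NAC052 (AT3G10490), a partner of the histone demethylase JMJ14, share a region of 1310 reads (1240 to 1383) on chromosome 3 from 3271427 to 3271543. It was centred in NAC053 and lay 283 bp from NAC052. NAC062 (AT3G49530), a membrane-bound factor released in the cold, had 1648 reads (1569 to 1730) on chromosome 3 from 18363325 to 18363556, deep inside the gene at 997.5 bp from the nearer end. NAC004 (AT1G02230) had 1147 reads (1082 to 1215) on chromosome 1 from 436255 to 436677, inside the gene. At NAC062 and NAC004 no other protein-coding gene lay within 1 kb.

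NAC085 (AT5G14490), which with NAC044 arrests the cell cycle after DNA damage, had 885 reads (828 to 945) on chromosome 5 from 4673133 to 4673946. At 813 bp this was the widest best region of the family, where the median was 155 bp and that of all regions 150 bp, and it also lay within 1 kb of AT5G14500. NAC036 (AT2G17040), known for small leaves when overexpressed, had 695 reads (644 to 749) on chromosome 2 from 7408382 to 7408488, 42 bp outside the gene and also within 1 kb of AT2G17043. NAC014 (AT1G33060) came next, outside the 2245 ranked highest, with 671 reads (621 to 724) at rank 2498, on chromosome 1 from 11978518 to 11978652, 37 bp inside a gene end.

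Sorted by role, the list of abscisic acid and dehydration had the highest median of reads. Of the 7 genes in this list 5 were near a region (NAC019, ANAC055, ATAF1, NAC032, NAC102), with 644 to 4859 reads and a median of 3983 (338 over all genes near a region), and 4 of them were near the 2245 ranked highest. Over all protein-coding genes these shares were 28.0% and 8.60%, and the same shares stand behind the counts of the lists that follow. This list, like the other role lists, was drawn up with results known, so its place among them is description only. It takes in NAC102, described above for low oxygen in seeds. NAC096, which also acts in the abscisic acid response, is left out. It had 300 reads at an FDR of 1.12% in a region centred in AT5G46600. Of the 7 genes in the list, 3 were near a region when 500 bp was allowed beside a gene, since the regions of NAC019 and NAC032 lay farther out. In the senescence list 4 of 9 genes were near one. Beside NAP and NAC032 these were NAC083 (VNI2), which delays ageing of leaves and restrains vessel formation, with 671 reads, and NAC042 (JUB1), which extends leaf life, with 70 reads at an FDR of 5.13%. The senescence activator ANAC092 (ORE1, AT5G39610) had none within 1 kb, and a region of 116 reads at an FDR of 2.10% lay 2154 bp from it. Its close relative ANAC059 (ORS1) had 57 reads at an FDR of 8.04% between 1 and 3 kb away, ANAC087 and NAC046 had FDRs of 77.3% and 33.5% at such distances, and NAC016 had none within 3 kb.

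Of 15 genes of secondary walls and vessels 10 were near a region, where the share was 48.0% over NAC genes and 28.0% over all genes. At an FDR of 5% or less 7 were near one (20.1% over all genes). The 10 best regions had a median of 140 reads, against 338 over all genes near a region. NAC066 was the 1 gene of the 15 near the 2245 ranked highest, a share close to the 8.60% of all genes. NST1, a master switch of fibre walls, had 320 reads, NAC083 671 reads, ANAC026 (VND5) 173 reads, NAC076 (VND2) 143 reads, NAC073 (SND2) 137 reads and VND1 108 reads. The NAC076 region was centred in AT4G36170. NAC010 (SND3), NAC075 and NAC007 (VND4) had 72, 39 and 17 reads at FDRs of 40.3%, 71.5% and 100%. No region lay within 1 kb of NAC012 (NST3), NAC105 (VND3), NAC101 (VND6), VND7 or XND1. XND1, a repressor of vessel formation, had a region of 575 reads at rank 773 just beyond the limit, 1037 bp away. NAC101, a switch of metaxylem vessels, had 1793 reads at rank 903 at 2631.5 bp.

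In the remaining lists, 3 genes were near the 2245 regions ranked highest, NAC053 and NAC062 of the membrane-tethered factors and NAC085 of DNA damage. Of 3 organ boundary genes, CUC3 had 461 reads and CUC2 53 reads at an FDR of 11.0%, and CUC1 had none within 3 kb. Of 4 root cap genes, SMB, which controls maturation of the cap, had 181 reads at an FDR of 19.6%, and NAC015, NAC070 and FEZ had none. Of 15 membrane-tethered factors 4 were near a region. These were NAC053, NAC062 and the sieve element genes NAC086 and NAC045, with 88 reads at an FDR of 3.75% and 61 reads at 11.0%. The 11 without one were NAC13, NAC016, NAC017, NTL8, NAC060, NTM1, NAC069, ANAC078, NAC089, TIP and NAC103. Of the 3 genes of DNA damage, SOG1 and NAC044 had none within 1 kb. Over all lists 25 of 53 genes were near a region (47.2%), and of the 47 genes in no list 23 were (48.9%).

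**Figure D3:**
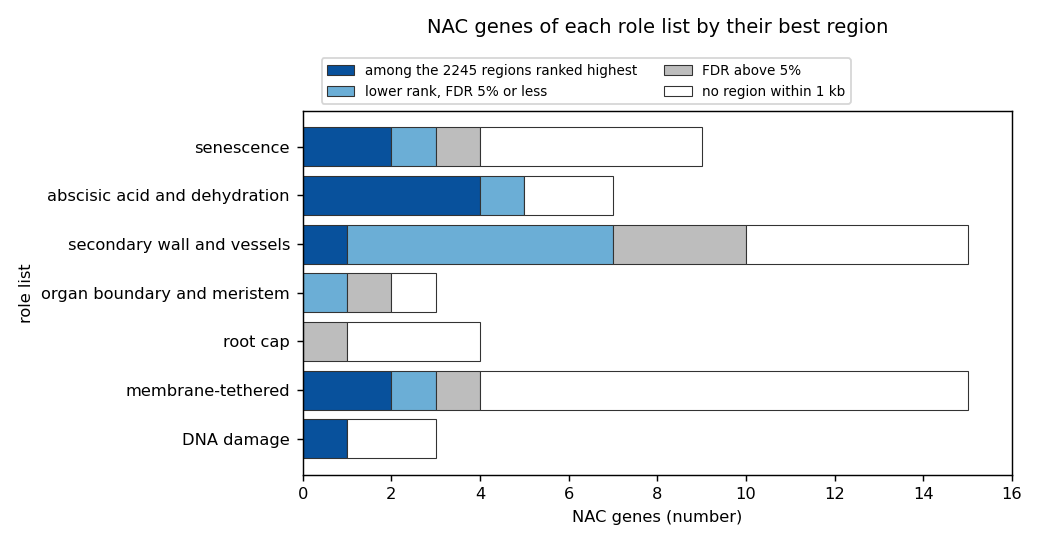
Number of NAC genes in each role list (x axis) by the support of their best region. The list of abscisic acid and dehydration has 4 of 7 genes among the 2245 ranked highest, and the wall and vessel list 1 of 15, though 10 of the 15 were near a region. Genes in 2 lists are counted in both.

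Of the 47 members in no role list, 17 were near a region at an FDR of 5% or less, and of the 53 in role lists 18 (20.1% over all genes). Apart from the members in no list described above by rank, their best regions held 24 to 618 reads. NAC041 had 618 reads, NAC003 571, NAC025 386, NAC096, which acts in the abscisic acid response, 300 and NAC005 294. LOV1, which delays flowering and acts in cold tolerance, had 298 reads at an FDR of 1.52e-05%, and NAC038 had 279. NAC1, which promotes lateral roots, had 185 reads, NAC094 158, NAC047 (SHG), a factor of upward leaf movement under flooding, 108, and NAC088 105. Above an FDR of 5% there were NAC074, a factor of cell death in stigmas, with 133 reads, NAC071, which acts in healing of cut stems, with 46, and NAC057, NAC065, NAC093 and NAC050 with 24 to 38 reads. The 24 genes in no list and with no region within 1 kb were NAC001, NAC006, NAC011, NAM, NAC020, NAC023, NAC024, NAC027, NAC028, ANAC056, NAC058, NAC061, NAC063, NAC064, NAC067, NAC077, NAC080, NAC082, NAC084, NAC090, NAC095, NAC097, NAC099 and NAC100. Reads of the 21 genes with an FDR of 5% or less outside the 2245 ranked highest ran from 88 to 671, and those of the 13 above 5% from 17 to 181.

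Regions lay inside and beside NAC genes equally often. The centre of the best region was inside the gene at 24 of the 48 and beside it at the other 24 (50% inside, against 54.7% over all protein-coding genes near a region). Inside, 13 were within 500 bp of a gene end. Beside, 10 were within 500 bp and 14 farther out. Among the 14 genes near the 2245 ranked highest, 6 had the centre inside. The gene table gives no strand, so starts and ends of genes could not be told apart. At 25 of the 48 no other protein-coding gene lay within 1 kb, and at 23 at least 1 did. For these 25, the 6 of 14 and the counts by distance, shares over all genes were not computed. They describe NAC genes only. With any region in place of the best, 29% of NAC genes and 16.1% of all genes were near one with no other protein-coding gene within 1 kb. In 4 cases, NAC019, NAC032, NAC083 and NAC010, the centre lay in a non-coding gene of the table beside the NAC gene. Counting only regions centred outside every protein-coding gene, 25 NAC genes (25%) and 9.51% of all genes were near one.

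**Figure D4:**
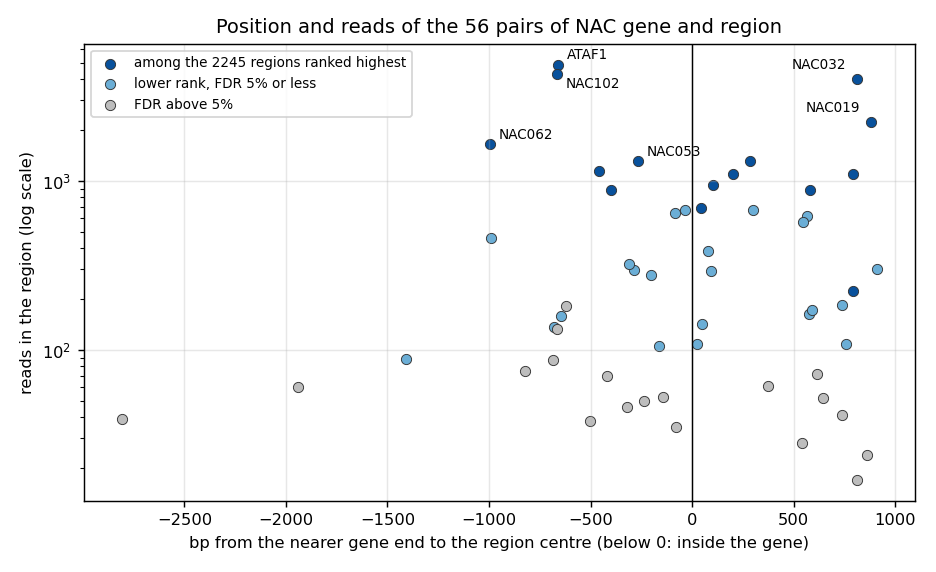
Reads in the region (y axis, log scale) against the distance in bp from the nearer gene end to the region centre (x axis, below 0 inside the gene) for the 56 pairs of NAC gene and region, coloured by support. Regions with many reads occur both inside genes (ATAF1, NAC102, NAC062) and 810 and 879 bp outside (NAC032, NAC019).

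The limit of 1 kb left out regions close to several members. Just inside it lay the region of NAC096 at 911 bp, with 300 reads and its centre in AT5G46600. Just outside lay those of NAC099 at 1004 bp with 126 reads, ANAC056 at 1034 bp with 318 reads and XND1 at 1037 bp. In all, 16 of the 52 members not near a region had one between 1 and 3 kb away, 12 of them at an FDR of 5% or less, and 36 had none within 3 kb. From 1 kb to 3 kb the share rose from 48% to 64% of members and from 28.0% to 46.7% of all protein-coding genes. Of the 48 members near a region, 16 had a better-ranked one between 1 and 3 kb away. At CUC2 it held 622 reads at rank 892, against 53 reads within 1 kb, at CUC3 675 against 461, and at NAC076 531 against 143, at 1009.5 bp.

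NAC genes that lie side by side were compared by position. Of the 24 members within 10 kb of another member 14 were near a region, and of the 76 others 34 were (28.0% over all protein-coding genes). The 14 take in 2 pairs that share a region, NAC048 with NAC049 and NAC052 with NAC053. The difference was not tested. NAC003, NAC004 and NAC005 each had a region of their own, with 571, 1147 and 294 reads, and that of NAC004 lay 1394 bp from NAC005. NAC073 and NAC074, NAC052 and NAC053, and NAC048 and NAC049 were all near a region. Support was weak at NAC074, with 133 reads at an FDR of 46.9%, and at NAC050 beside NAC052, with 24 reads at 41.0%. NAC016 and NAC017, NTM1 and NAC069, and NAC077 and ANAC078 had none. Other neighbours differed under the limit of 1 kb. NAC019, NAC047, ANAC055 and NAC065 were near a region, and their neighbours NAM, NAC046, ANAC056 and NAC064 were not. Yet ANAC056 had 318 reads at rank 2631 at 1034 bp, and NAM had 268 reads at rank 2797 at 1381 bp. NAC065 had 35 reads at an FDR of 12.9%. By chromosome, 15 of 32 NAC genes on chromosome 1, 7 of 8 on chromosome 2, 12 of 22 on chromosome 3, 5 of 10 on chromosome 4 and 9 of 28 on chromosome 5 were near a region. The shares of all protein-coding genes ran from 26.2% on chromosome 3 to 29.6% on chromosome 2, and these differences were not tested.

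Genes that work with NAC factors were read by the same rule. Among 18 genes of leaf senescence, chlorophyll breakdown and the miR164 family, which targets transcripts of CUC1, CUC2, NAC1 and ORE1, 10 were near a region, 7 at an FDR of 5% or less and 3 among the 2245 ranked highest. Of the 15 protein-coding genes among them these counts were 8, 6 and 3, against shares of 28.0%, 20.1% and 8.60% over all protein-coding genes. The 3 were EIN2 of ethylene signalling with 2444 reads (2348 to 2543, also within 1 kb of IDH-V), SAG113 (AT5G59220), a phosphatase gene activated by NAP, with 2211 reads (2120 to 2305) and NYC1, a chlorophyll b reductase gene, with 779 reads. EIN3 had 73 reads, SAG29 241, ACD2 224, and AT4G11910 (NYE2) and BFN1 94 and 81 reads at FDRs of 23.3% and 24.7%. Of the miR164 genes MIR164b had 290 reads at an FDR of 0.154%, MIR164c 38 reads at 80.1%, and MIR164a had none. No region lay within 1 kb of EIL1, NYE1, NOL, PPH, PAO, SAG12 or WRKY53. NAP and SAG113 both lay near regions, at ranks 646 and 644, and whether these are linked was not tested. This list and the next were chosen with earlier results of these data known.

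Among 17 genes of secondary wall regulation and synthesis downstream of these NAC factors, 4 were near a region and none of these among the 2245 ranked highest. With 28.0% and 8.60% over all genes, these counts are near the background. IRX9, of xylan synthesis, had 189 reads and KNAT7 101 reads, both at an FDR under 1% (0.0693% and 0.151%). MYB46 and MYB85 had 82 and 34 reads at FDRs of 63.0% and 45.4%. MYB83, MYB58, MYB63, AtMYB103, MYB20, LAC4, LAC17, XCP1, XCP2, IRX10 and the wall cellulose synthase genes CESA4, CESA7 and CESA8 had none.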

How the data were processed

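Regions were called by the authors in 1 ChIP library over 1 input library and deposited as 1 list with positions on TAIR9, per the file headers; the submitters' processing notes name the same build, and the sources used here do not give the aligner, the caller or filters. The deposited false discovery rates are in percent, and the deposited read counts per region are not normalised. The list's 2 columns of reads by strand were not used. Depth beyond the 5112270 reads in regions is unknown. Distances to gene ends set TAIR9 positions beside the RefSeq table of TAIR10.1. As a check, the regions ranked below 4491 were shifted by up to 3 kb in steps of 100 bp. The share within 400 bp outside genes was lowest at no shift on all 5 chromosomes. It was 5.21 to 5.86% there, against chromosome medians of 13.3 to 14.1% over the shifts. These lower-ranked regions were thus scarce just outside genes.

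Intervals are exact (Poisson for reads, Clopper-Pearson for shares, 95%) and cover counting error only, treating reads as independent molecules, which PCR copies are not; those of shares treat genes as independent. Python 3.11.15 with scipy 1.17.1 was used. NAC members, role lists and the lists of genes that work with them were chosen with earlier results of these data known. Members near the 2245 regions ranked highest, and all in role lists, were to be named, with the 15 ranked best in full. Motifs in promoters and strand-aware positions were planned but not analysed here. Alternatives were other region ranks, distances, overlap, merging, nearest gene and naming rules.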

Additional observations from a re-analysis of the deposited data

How the results depend on the processing

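The count of 48 NAC genes near a region fell to 14 with the 2245 regions ranked highest, to 30 with the 4491 ranked highest and to 25 with regions centred outside every protein-coding gene. With regions that have no other protein-coding gene within 1 kb, an alternative chosen after seeing the data, it was 29 (29%, against 16.1% of all genes). These alternatives count fewer regions by construction. The other alternatives kept it within 1.5 times: 35 at a false discovery rate (FDR) up to 5%, 36 within 500 bp, 64 within 3 kb (64.0%, against 46.7% of all genes), 51 with any overlap, 48 with merged regions, 43 with the nearest gene, 40 of 81 by symbol only and 48 of 99 with case matched, chosen after seeing the data. Adding NTL9, a NAC protein by name that has 1077 reads in its region, gave 49 of 101. The median of 296 reads in best regions rose to 618 at an FDR up to 5%, where 35 genes were left. It was 286.5 within 500 bp and 337 within 3 kb. These values lie within the 95% order-statistic interval of the median over genes (137 to 644 reads). That interval covers the draw of genes and not a change of processing. Of the 25 genes in role lists near a region, 9 were near the 2245 ranked highest. The strand-aware position was not run. Regions with few reads limit the weak end of the family: the 13 best regions above 5% had a median of 46 reads.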
